A study of Mus musculus with 4 samples.

Results

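Ly6c2-positive monocytes of the ischemic mouse brain were described from single-cell RNA profiles 5 and 14 days after a stroke. A cell was taken as a member when it had 2 or more unique molecular identifiers (UMIs, each marking 1 captured RNA molecule) of Ly6c2, 5 or more of Lyz2 and 2 or more summed over Ccr2, Plac8, Vcan, F10 and Chil3. It also had to have fewer than 10 UMIs of the complement genes C1qa, C1qb and C1qc, no Siglech or Flt3, under 1% of its UMIs from the neutrophil granule genes Camp, Ngp and Ltf, and fewer than 3 UMIs each of T cell genes (Cd3d, Cd3e, Cd3g, Trac) and of B cell genes (Cd79a, Cd79b, Ms4a1). The rule took 819 of 10841 cells. These genes chose the cells, so their levels are given as a description without a test.

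All mice were of the strain C57/BL6 and underwent transient middle cerebral artery occlusion (tMCAO), in which a brain artery is blocked and then reopened. The ischemic hemisphere was perfused and dissociated on day 5 or day 14, CD45high leukocytes were sorted, and each day has 2 droplet libraries made with the 10x Genomics Single Cell 3' v2 kit. The design has no uninjured hemisphere and no blood sample, and whether a library holds cells of 1 mouse or of several is not stated in the labels, and a p-value here covers no more than the variation from library to library. The members carried 479112 and 558008 UMIs in replicates 1 and 2 of day 5, and 878090 and 1699971 UMIs in those of day 14. The median member held 4126 and 3686 UMIs on day 5, then 4069 and 4331 on day 14. Between 5 and 15 barcodes recurred in any pair of libraries, and none of them was shared between members. The deposited day 5 matrices name software version 3.0.1 in their header and the day 14 matrices name none, so an upstream difference and the day cannot be told apart.

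Classical monocytes leave the bone marrow through Ccr2, a chemokine receptor, and in the mouse carry the surface protein Ly6C, encoded in part by Ly6c2. After a stroke they enter the injured hemisphere, where they can take on features of macrophages or of antigen-presenting cells. Type I interferons act on such cells through the receptor chains Ifnar1 and Ifnar2 and a complex of transcription factors, which switches on antiviral genes. MHC class II proteins, which show peptides to CD4 T cells, are produced under the master regulator Ciita.

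The members made up 112 of 2506 cells (4.47%, exact binomial 95% interval 3.69 to 5.35) in replicate 1 and 130 of 3447 (3.77%, 3.16 to 4.46) in replicate 2 of day 5. On day 14 they were 205 of 2580 cells (7.95%, 6.93 to 9.06) and 372 of 2308 (16.1%, 14.6 to 17.7). Both day 14 libraries lay above both day 5 libraries, and the day 14 pair differed from each other by more than the counting error, which is all these intervals cover. The share was 4.12% ± 0.493 on day 5 and 12.03% ± 5.78 on day 14 (SD, n = 2), a difference of 7.91 percentage points with an exact two-sided permutation p of 0.333, the smallest that 2 libraries against 2 can give. Without replicate 2 of day 14 the difference was 3.83 points, and without replicate 1 it was 11.998. Among cells with 5 or more Lyz2 UMIs, the broad myeloid compartment, the members were 7.82% and 6.66% on day 5, then 24.8% and 35.1% on day 14. A sort fixes no absolute number, so a share can move with the other cells counted. Lymphocytes, for example, numbered 98 and 120 cells on day 5, then 917 and 463 on day 14.

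**Figure D1:**
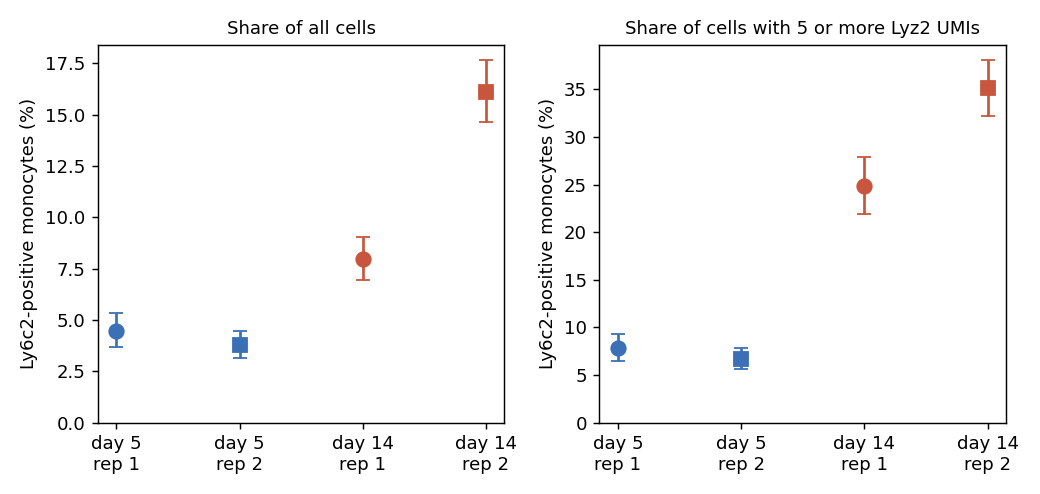
Share of Ly6c2-positive monocytes in each library (% of cells, vertical axes from 0), among all cells on the left and among cells with 5 or more Lyz2 UMIs on the right; points are libraries and bars are exact binomial 95% intervals. Both day 14 libraries (7.95% and 16.1% on the left) sit above both day 5 libraries (4.47% and 3.77%).

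The genes that chose the cells did not keep 1 level over time. Ly6c2 lies on chromosome 15 (75108161 to 75112066, GRCm38, RefSeq) and stood at 1804 and 2061 CPM (UMIs scaled to a common library total, with TMM normalization) on day 5, then at 4643 and 4781 on day 14. Plac8, a small cytoplasmic protein gene of classical monocytes, stood at 3273 and 3091 CPM on day 5, then at 7432 and 8145 on day 14. Ccr2 had 686 and 862 CPM and then 1542 and 1408. These 3 genes were higher in both later libraries, while Chil3, which encodes a chitinase-like secreted protein of young monocytes, went the other way. Chil3 had 5742 and 5613 CPM on day 5, then 1039 and 792 on day 14. Lyz2, the lysozyme gene of myeloid cells, held 36882 and 33569 CPM and then 32147 and 26818. Vcan, a matrix proteoglycan gene, had 80.3 and 117 CPM and then 64.3 and 72.9, and F10, a clotting factor gene, overlapped between the days.

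At the edge of the rule, 31, 25, 14 and 18 members of day 5 replicates 1 and 2 and day 14 replicates 1 and 2 had exactly 2 Ly6c2 UMIs. Just outside it, 32, 26, 14 and 37 cells met every other condition with 1 Ly6c2 UMI. Ly6c2 belongs to a family of near-identical neighbours on chromosome 15 whose reads a counter can split. Ly6c1, its closest copy, was at 0 CPM in both day 5 libraries and at 33.0 and 13.5 on day 14. The C1q limit left out more: 49, 39, 58 and 157 cells met the other conditions with 10 or more C1q UMIs. Only 0, 5, 5 and 13 members had 8 or 9 C1q UMIs, and 6, 2, 5 and 7 cells outside had 10 or 11. Ptprc, which encodes the sorted protein CD45, was present at 309 and 317 CPM on day 5, then 357 and 359 on day 14, scaled to library totals.

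Ranked by the lowest value over the 4 libraries of the ratio, within a library, of the monocytes to the highest of the other classes described (macrophages, Cd209a dendritic cells, neutrophils, microglia and lymphocytes), the leading genes outside the rule were Clec4a3, Plcb1, Clec4a1, Gpr141, Klra2, Ifi211, Dmkn, Pnp, Ms4a6b, Ms4a8a, Ms4a4c and Dbi. Clec4a3, a C-type lectin receptor gene, ran from 280 to 448 CPM in the monocytes and from 0 to 183 in the other classes. Klra2, a Ly49 receptor gene, ran from 133 to 179 CPM against 0 to 93.4. Over all libraries, 4 of the 12 overlapped with the other classes: Ms4a4c (962 to 2252 CPM against 15.6 to 1297), Ms4a6b (559 to 1118 against 77.8 to 658), Ifi211 (269 to 880 against 4.95 to 449) and Dmkn (13.7 to 87.8 against 0 to 40.3). Because the cells were picked by expression, this ranking is a description. Whether the cells lay in the tissue or in vessels was not measured.

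To ask how the cells changed with time, UMIs were summed per library and day 14 was set against day 5 with edgeR's quasi-likelihood test over 6099 genes, with Benjamini-Hochberg adjustment and a threshold of 0.05. Higher on day 14 were 241 genes (3.95%), and 106 (1.74%) were lower. The median log2 fold change over all genes was 0.00, and 49.2% of genes had no overlap between the days. DESeq2 called 152 higher and 50 lower. Without replicate 1 of day 5, the counts rose to 494 and 287.

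**Figure D2:**
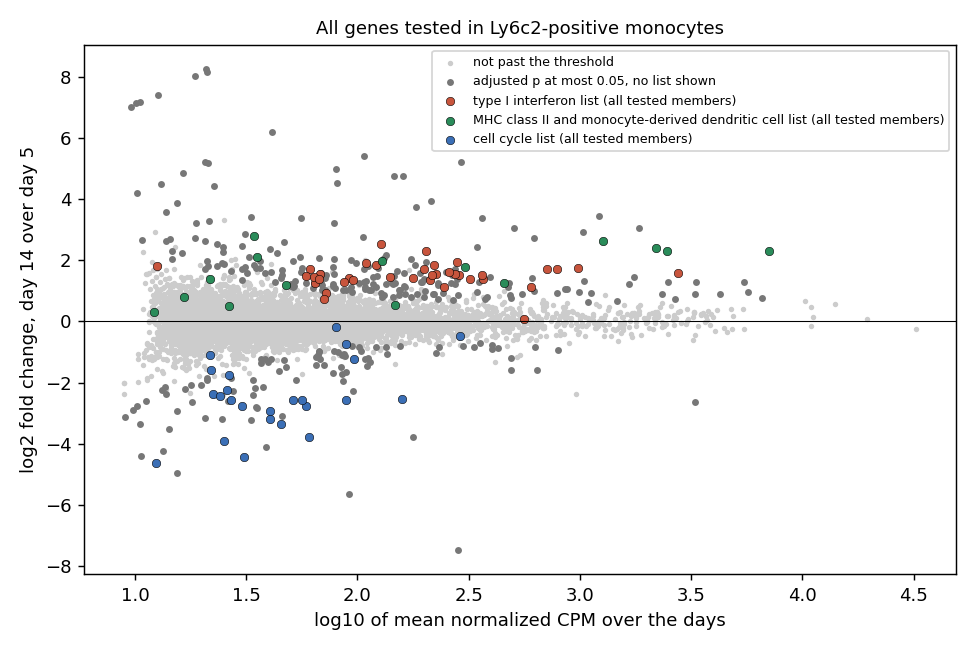
Log2 fold change of day 14 over day 5 (vertical axis) against the log10 of the mean normalized CPM (horizontal axis) for the 6099 genes tested in the monocytes; colours mark all tested members of 3 gene lists, and dark grey marks other genes past the threshold. Interferon genes (median 1.52) and MHC class II genes (median 1.78) lie above 0, and cell cycle genes (median -2.56) lie below it.

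The broadest change was in type I interferon genes, of which 31 of 37 rose and 6 did not pass the test, against 3.95% of all genes higher. Their median log2 fold change was 1.52, where that of all genes was 0.00. Without cells that had 3 or more UMIs of cell cycle genes, or of the granule genes Elane, Prtn3, Ctsg and Mpo, it was 1.06. In that selection 25 of 36 genes of the list were higher. Isg15, which encodes a ubiquitin-like protein attached to other proteins in the antiviral response, had 511 and 387 CPM on day 5, then 1207 and 1811 on day 14. It rose by 1.75 ± 0.23 on the log2 scale (SE, 2 libraries a day, adjusted p = 0.00225). Irf7, the factor that amplifies interferon production, had 412 and 324 CPM and then 1019 and 1398, a rise of 1.72 ± 0.20 (adjusted p = 0.00158). Ifi206, of the family of cytosolic nucleic acid sensors, had 76.2 and 61.0 CPM and then 340 and 335, a rise of 2.30 ± 0.20 (adjusted p = 3.31e-04). In all 3 genes both day 14 libraries lay above both day 5 libraries, with the day 14 pair further apart for Isg15 and Irf7 than for Ifi206.

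Down the pathway, the receptor genes Ifnar1 (0.60 ± 0.23) and Ifnar2 (0.65 ± 0.21) did not pass the test. Among the factors, Stat2 had 35.0 and 34.8 CPM on day 5, then 81.3 and 120 on day 14, and rose by 1.55 ± 0.29. Irf9, its DNA-binding partner, rose by 1.03 ± 0.24 (adjusted p = 0.0368), a call lost without replicate 2 of day 5 (adjusted p = 0.063) and without replicate 1 of day 14 (0.074). The brake Usp18, which takes ISG15 off proteins and damps the receptor, rose by 1.73 ± 0.22. Effectors followed the same direction: Bst2, which tethers budding viruses to the cell, had 360 and 301 CPM and then 1010 and 1165 and rose by 1.72 ± 0.17. Ifi27l2a was the most abundant of the list, at 1576 and 1172 CPM and then 4040 and 4239. Of 16 genes of interferon signalling, 6 rose and 10 did not pass, against 3.95% of all genes higher.

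Promoters of 3 of these genes are printed because they carry the letters of the interferon-stimulated response element (ISRE), the sequence through which type I interferons switch genes on. They hold the 250 bases before the start of the gene (RefSeq, GRCm38.p6), 5′ to 3′ on the strand of the gene, with each match of either strand (GAAA, any 2 bases, GAAA) in capitals. Isg15 spans chr4:156200819-156201068 on the minus strand, Bst2 chr8:71537473-71537722 on the minus strand and Slfn5 chr11:82951852-82952101 on the plus strand.
Isg15: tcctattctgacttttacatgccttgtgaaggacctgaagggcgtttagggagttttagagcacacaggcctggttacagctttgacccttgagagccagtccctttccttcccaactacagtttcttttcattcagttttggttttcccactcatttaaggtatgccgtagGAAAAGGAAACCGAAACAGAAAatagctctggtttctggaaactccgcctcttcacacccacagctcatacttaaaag
Bst2: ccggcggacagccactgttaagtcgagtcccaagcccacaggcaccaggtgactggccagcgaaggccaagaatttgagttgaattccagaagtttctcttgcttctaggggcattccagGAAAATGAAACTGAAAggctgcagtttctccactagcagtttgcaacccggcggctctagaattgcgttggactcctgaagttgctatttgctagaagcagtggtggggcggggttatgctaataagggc
Slfn5: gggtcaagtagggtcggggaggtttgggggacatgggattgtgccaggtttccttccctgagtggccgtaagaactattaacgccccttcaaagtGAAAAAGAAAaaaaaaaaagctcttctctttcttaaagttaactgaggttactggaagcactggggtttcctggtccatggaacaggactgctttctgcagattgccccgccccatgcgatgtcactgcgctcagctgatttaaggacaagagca
The matches overlap in Isg15, which has 3, and in Bst2, which has 2, and Slfn5 has 1. In windows from 250 bases before to 50 after the start, the letters are in 13 of the 23 risen genes that had an entry and in 3.44% of 32851 promoters. A match is a description of the sequence.

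Cell by cell, interferon RNA was higher over most of the population. The list took a median of 0.417% and 0.353% of a monocyte's UMIs on day 5, then 1.44% and 1.56% on day 14, and the lower quartile on day 14 (0.866% and 1.06%) lay above the day 5 medians. At a common depth of 2000 UMIs a cell, 30.9% and 20.2% of the monocytes had an Isg15 UMI on day 5, then 68.8% and 79.9% on day 14. T cells thinned in the same way had 16.7% and 9.09% (24 and 11 cells) and then 29.9% and 34.0% (401 and 262 cells). Without thinning the monocyte values were 42.9%, 28.5%, 80.5% and 91.9%. Thinning left out 7 members with fewer than 2000 UMIs.

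Other cells of the same libraries moved with them. The make-up of the lymphocytes differed between the days. T cells were 47 of 98 and 50 of 120 of them on day 5, then 709 of 917 and 380 of 463 on day 14. What part this had in the lymphocyte values was not tested. In T cells alone Isg15 had 62.4 and 260 CPM on day 5, then 304 and 430 on day 14, scaled to library totals. The list's median log2 ratio in lymphocytes was 1.47, and 0 of 37 genes passed edgeR's interaction test of a day effect in monocytes different from that in lymphocytes (6 at an unadjusted p under 0.05), where 0.946% of 7504 genes were higher and 0.413% lower. In macrophages, here cells with 10 or more C1q UMIs, a Ms4a7 UMI and 5 or more Lyz2 UMIs, 4 of 37 had a larger rise than in monocytes, against 0.554% of all genes. Irf7 was at 131 and 148 CPM in them on day 5, then at 1111 and 1104 on day 14, and its day effect was lower in the monocytes by 1.32 ± 0.23 on the log2 scale (interaction, adjusted p = 0.00348). Isg15 differed by -1.05 ± 0.23 (adjusted p = 0.0234). The monocytes had the higher level of both genes on day 5.

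MHC class II and monocyte-derived dendritic cell genes had a median of 1.78 over 15 tested genes, of which 9 rose and 6 did not pass, against 3.95% of all genes higher. The invariant chain Cd74, which escorts class II molecules, had 1967 and 2815 CPM on day 5, then 12342 and 11092 on day 14, a rise of 2.29 ± 0.20 (adjusted p = 3.31e-04). H2-Ab1 (chromosome 17, 34263227 to 34269418), a class II β chain gene, had 669 and 1003 CPM and then 4220 and 3969, a rise of 2.29 ± 0.20 (adjusted p = 3.97e-04). Ciita itself was scarce, at 4.12 and 12.2 CPM and then 66.7 and 53.7, and rose by 2.79 ± 0.43, or by 3.79 without replicate 2 of day 5. Ciita, counted among the 9, passed the low-count filter only through day 14. Its rise is therefore a description. Every library of day 14 lay above every library of day 5 for these 3 genes.

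The peptide-loading genes H2-DMa and H2-DMb1 rose by 1.26 ± 0.19 and 1.78 ± 0.17. H2-Aa, the α chain that pairs with H2-Ab1, rose by 2.40 ± 0.25. H2-Eb1, the β chain of the other class II molecule, rose by 2.62 ± 0.28, and without replicate 2 of day 5 H2-Eb1 rose by 3.24. Cd209a and Clec10a, lectin receptor genes of monocyte-derived dendritic cells, had 35.0 and 67.9 and 14.4 and 12.2 CPM on day 5, and 175 and 237 and 54.6 and 60.1 on day 14. Cd209a rose by 1.98 ± 0.29 and Clec10a by 2.11 ± 0.33. Cd209a is also 1 of 10 listed markers of conventional dendritic cells. Of the other markers, Cd24a (-0.76 ± 0.33) and Wdfy4 (0.020 ± 0.44) did not pass and 7 were too low to test. The markers summed to 238 and 186 CPM in the monocytes on day 5, then to 273 and 349 on day 14, with 7, 6, 1 and 1 of them at 0, and their part in the result was not tested. Clec10a lost its call (adjusted p = 0.16) in a stricter selection, without members that had a UMI of 11 microglial, T, B or NK cell genes and without the 5% with most UMIs. The costimulatory gene Cd86 (0.55 ± 0.20) and the integrin gene Itgax (0.80 ± 0.42) did not pass the test.

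The size of this group's change rests on the C1q limit of the rule. When the cells with 10 or more C1q UMIs were taken in as well, the list's median was 0.84 with 10 of 17 genes higher. H2-Ab1 was then higher by 0.76, Cd74 by 0.93 and H2-Aa by 0.99 on the log2 scale, with the calls kept, while Clec10a lost its call (0.58, adjusted p = 0.27). Those cells had 5549 and 4830 CPM of H2-Ab1 on day 5, then 4828 and 3362 on day 14. A C1q limit of 5 in place of 10 left H2-Ab1 at 2.18.

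Both class II promoters that hold the Y box are shown, since this element (CTGATTGG) belongs to the conserved block through which class II genes are read. H2-Aa spans chr17:34287824-34288073 on the minus strand and H2-Eb1 chr17:34305617-34305866 on the plus strand, with the letters in capitals.
H2-Aa: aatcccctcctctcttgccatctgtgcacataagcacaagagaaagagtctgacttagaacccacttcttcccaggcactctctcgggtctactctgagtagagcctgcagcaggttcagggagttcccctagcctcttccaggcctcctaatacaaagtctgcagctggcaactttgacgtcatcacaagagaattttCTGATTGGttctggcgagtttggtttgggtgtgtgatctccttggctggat
H2-Eb1: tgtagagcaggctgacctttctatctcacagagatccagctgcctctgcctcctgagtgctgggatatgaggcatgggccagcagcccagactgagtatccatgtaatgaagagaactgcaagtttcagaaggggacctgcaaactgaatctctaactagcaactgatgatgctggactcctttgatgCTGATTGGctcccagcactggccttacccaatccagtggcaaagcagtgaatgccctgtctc
The match lies 51 bases before the start in H2-Aa and 62 in H2-Eb1. Of the 9 risen genes, 5 had an entry and 2 hold the letters on either strand, against 4.10% of all promoters.

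Unlike the interferon genes, the class II genes were unevenly spread over the cells. Cd74, H2-Aa, H2-Ab1 and H2-Eb1 took a median of 0.041% and 0.037% of a monocyte's UMIs on day 5, then 0.505% and 0.272% on day 14, while the upper quartile went from 0.083% and 0.124% to 3.11% and 2.27%. At 2000 UMIs a cell, 7.27% and 11.6% of the monocytes had 20 or more UMIs of the 4 genes on day 5, and 39.0% and 35.1% on day 14. On day 14, 41.0% and 49.2% still had 0 to 4. On day 5 the share with a H2-Ab1 UMI (21.8% and 24.8%) was below that of T cells (25%, 24 cells) in replicate 1 and above it (18.2%, 11 cells) in replicate 2. T cells of the mouse are not known to make class II, so at this depth the day 5 share of cells with a UMI is not read as a share of cells expressing the gene. On day 14 it was 57.6% and 59.0% against 28.7% and 30.5% in T cells, at median depths of 4069 and 4331 UMIs in the monocytes and 2114 and 2358 in the T cells before thinning. T cell levels of H2-Ab1 were 1747 and 1726 CPM on day 5, then 366 and 422 on day 14.

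**Figure D3:**
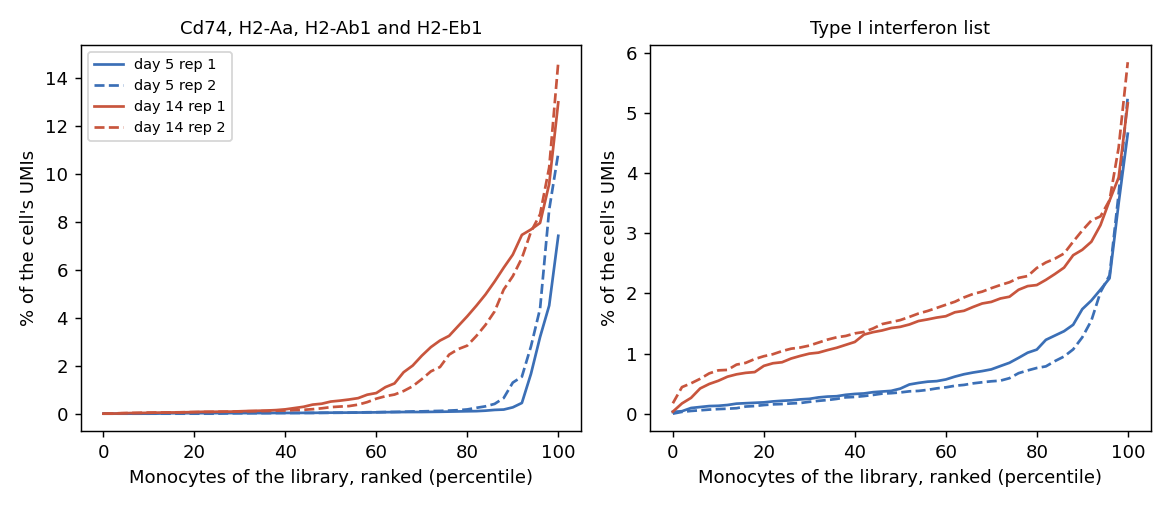
Percent of each monocyte's UMIs (vertical axes) from 4 MHC class II genes on the left and from the type I interferon list on the right, with the cells of each library ranked from lowest to highest (percentile, horizontal axes); each line is 1 library. The interferon lines of day 14 lie above those of day 5 over most of the range (medians 1.44% and 1.56% against 0.417% and 0.353%), while the class II lines part in the upper portion (upper quartiles 3.11% and 2.27% against 0.083% and 0.124%).

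The monocytes of day 14 with most class II RNA carried less of the early gene Chil3. A Chil3 UMI was present in 27.5% and 17.1% of those with 20 or more class II UMIs, and in 65.5% and 55.8% of those with 0 to 4. The haptoglobin gene Hp had a UMI in 40.0% and 34.1% of the first and in 66.7% and 58.0% of the second. Il1b was found in 83.8% and 86.8% against 76.2% and 69.6%. The share with any Spp1 UMI was close in both, at 28.7% and 45.7% against 28.6% and 44.8%. Most Spp1 UMIs lay in few cells, 93.6% in 10 cells of replicate 1 and 79.4% in 19 of replicate 2. A share with any UMI therefore cannot show whether Spp1 follows class II. The mean number of interferon UMIs was close in both, at 28.7 and 32.0 against 31.9 and 35.1. Cells of 1 library share their source, so these are descriptions.

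The rise of class II genes differed from the other antigen-presenting cells. Macrophages had H2-Ab1 at 5319 and 6461 CPM on day 5, then 4729 and 4182 on day 14, scaled to library totals. Dendritic cells with a Flt3 and a Cd209a UMI had 17974 and 20471 and then 11915 and 13152. In the same scale the monocytes went from 678 and 1032 to 3960 and 3651, against 4729 and 4182 in the macrophages of day 14. The day effect of H2-Ab1 was larger in monocytes by 2.66 ± 0.15 against macrophages (adjusted p = 4.1e-09) and by 2.87 ± 0.14 against the dendritic cells (adjusted p = 6.11e-11) in edgeR's interaction test with the library as a block. Of the 15 list members, 9 passed this test with a larger rise against macrophages and 10 against dendritic cells, where 0.501% of 7584 and 0.969% of 5364 genes did. The macrophages of day 14 held 2782 and 2081 CPM of Ly6c2, against 207 and 113 on day 5, and what part this had in the comparison was not tested.

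**Figure D4:**
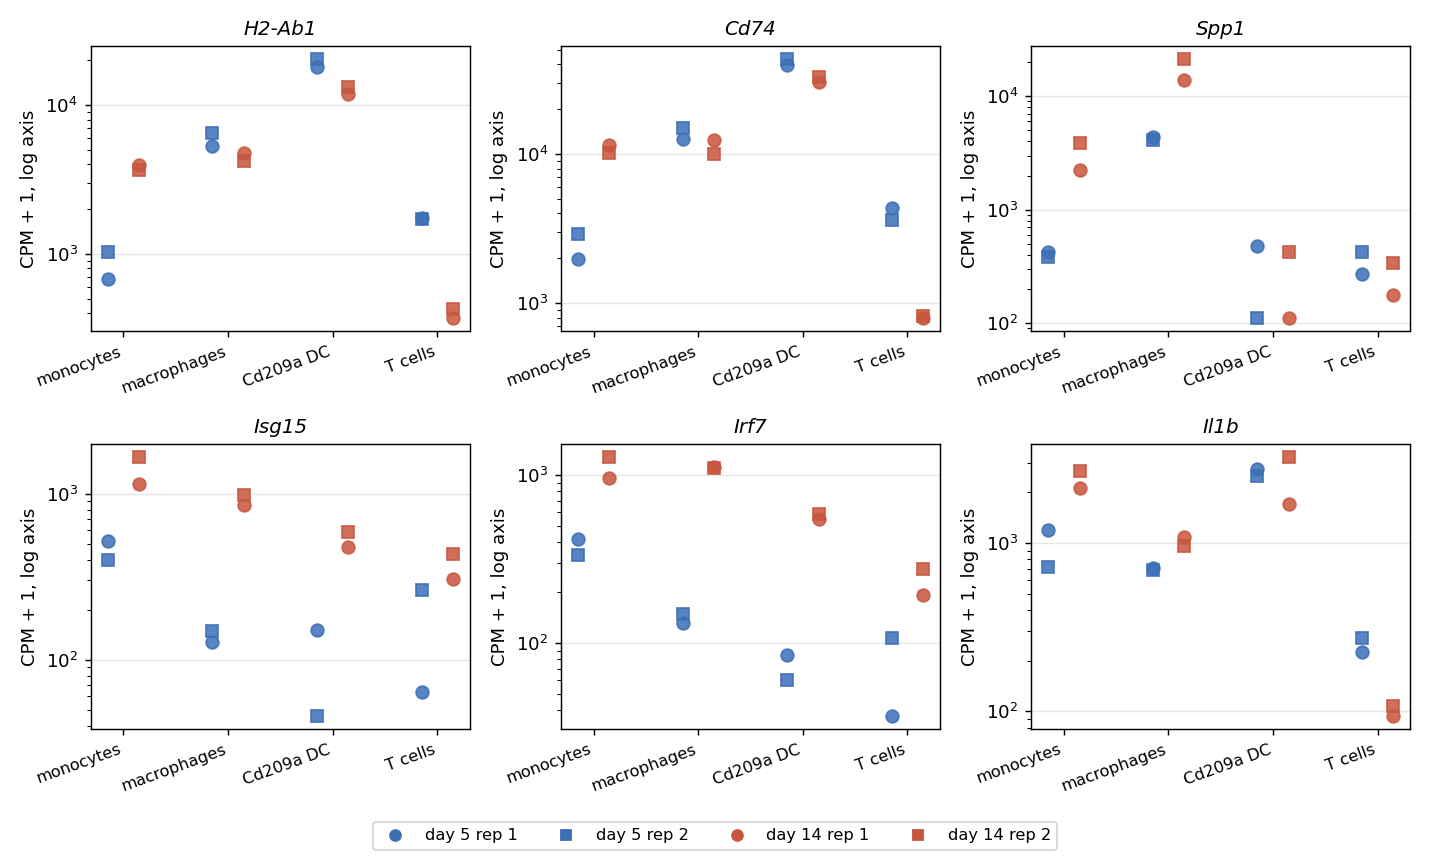
CPM + 1, scaled to library totals (vertical log axes), of 6 genes in monocytes, macrophages, Cd209a dendritic cells and T cells; each point is 1 library, blue for day 5 and red for day 14, circles for replicate 1 and squares for replicate 2. H2-Ab1 goes up with time in the monocytes (678 and 1032 to 3960 and 3651 CPM) and down in the dendritic cells (17974 and 20471 to 11915 and 13152).

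Spp1 (chromosome 5, 104435111 to 104441053), which encodes the secreted adhesive protein osteopontin, had 416 and 371 CPM on day 5, then 2399 and 4176 on day 14. It rose by 3.06 ± 0.26 on the log2 scale, 8.36-fold (adjusted p = 3.27e-04). Yet few cells carried it: the 10 monocytes with most Spp1 in replicate 1 of day 14 held 93.6% of its 1977 UMIs, and the 19 such cells in replicate 2 held 79.4% of 6529. At 2000 UMIs a cell, 3.64% and 1.55% of the monocytes had 5 or more Spp1 UMIs on day 5, and 4.39% (exact 95% interval 2.03 to 8.17) and 12.2% (9.06 to 16.0) on day 14. Among T cells of day 14 that share was 0.499% and 1.53%.

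The share with any Spp1 UMI was 22.7% and 13.2% on day 5, then 28.8% and 45.1% on day 14. T cells had 25% and 18.2% on day 5 (24 and 11 cells), then 22.7% and 38.5% on day 14. The monocytes lay below the T cells in both day 5 libraries and above them in both day 14 libraries. In the stricter selection the log2 fold change was 3.08 but the call was lost (adjusted p = 0.17). Macrophages held 4400 and 4117 CPM and then 13831 and 21325. The day effect in monocytes was larger than in macrophages by 0.95 ± 0.15 (interaction, adjusted p = 0.00118) and than in the dendritic cells by 3.02 ± 0.40 (adjusted p = 2.2e-04). Among the receptors for osteopontin, Cd44 (-0.52 ± 0.23), Itga4 (0.35 ± 0.28), Itgb1 (0.51 ± 0.23), Itgav (0.29 ± 0.38) and Itgb5 (-0.11 ± 0.20) did not pass the test.

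**Figure D5:**
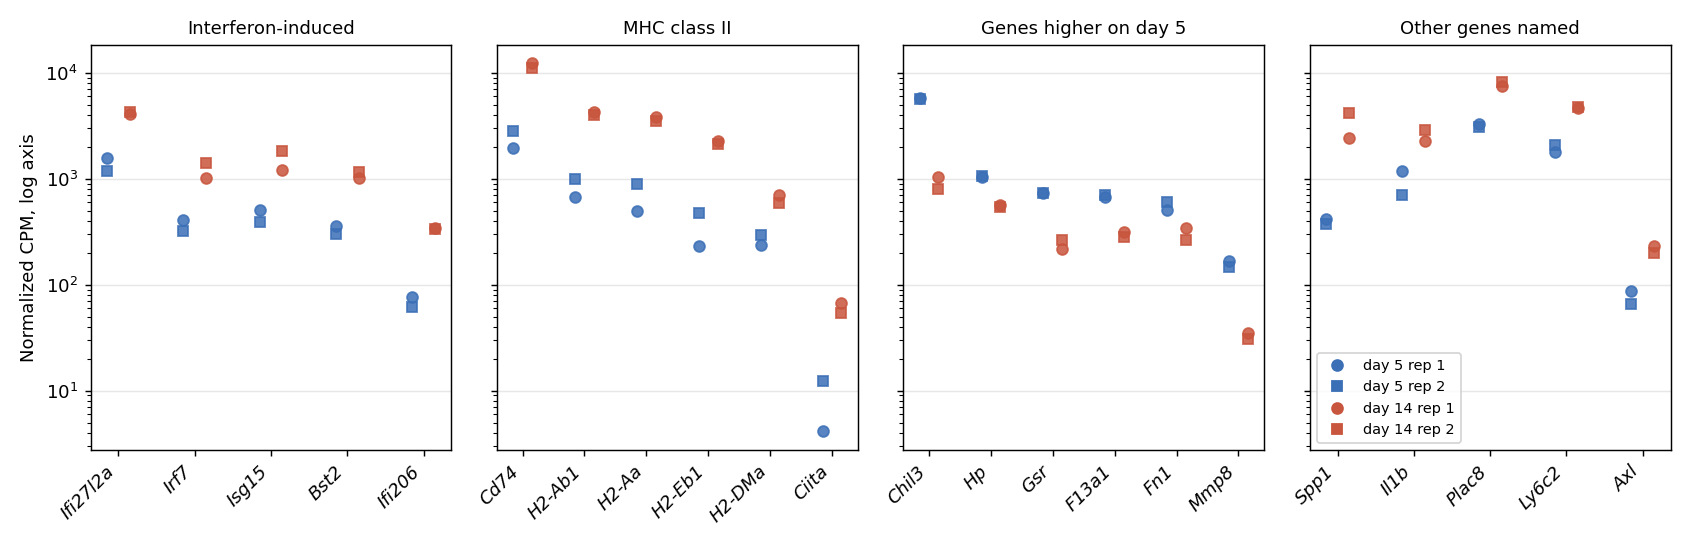
Normalized CPM (vertical log axis) of 22 genes in the monocytes, with each point 1 library, blue for day 5 and red for day 14. Chil3, Plac8 and Ly6c2 were used to choose the cells. The genes shown were picked from those named in the text. The days do not overlap for any of them, nor for 49.2% of all genes tested. Cd74 is at 1967 and 2815 against 12342 and 11092 CPM, and Gsr at 729 and 739 against 217 and 266 CPM.

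Genes of the classical monocyte list went in both directions. Outside the rule genes, 3 of 18 tested members of that list rose and 6 fell, against 3.95% of all genes higher and 1.74% lower. Gsr, glutathione reductase, had 729 and 739 CPM on day 5, then 217 and 266 on day 14 and fell by 1.60 ± 0.17 (adjusted p = 9.9e-04). F13a1, a clotting factor subunit made by monocytes, had 665 and 706 CPM and then 317 and 281 and fell by 1.20 ± 0.16 (adjusted p = 0.00306). Hp had 1040 and 1063 CPM and then 562 and 537 and fell by 0.94 ± 0.15 (adjusted p = 0.0067). For these 3 genes the 2 libraries of each day nearly coincided. Fibronectin, Fn1, fell by 0.88 ± 0.19, a call lost without replicate 2 of day 14 (adjusted p = 0.24). Those that rose were Ms4a4c (1.23 ± 0.15), Ms4a6b (1.07) and Ly6a, which encodes Sca-1 and is interferon-inducible (39.1 and 85.4 CPM, then 510 and 819, 3.39 ± 0.34, and 4.08 without replicate 2 of day 5).

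Of 9 tested markers of the other monocyte fate, the non-classical patrolling cell, Ceacam1 (-1.90 ± 0.31) and Pglyrp1 (-1.43 ± 0.34) fell and 7 did not pass, against 1.74% of all genes lower. Pglyrp1 lost its call without replicate 2 of day 5 (-0.82, adjusted p = 0.19). Of 20 macrophage maturation genes, Spp1 and Axl (1.49 ± 0.21), a receptor for dying cells, rose and 18 did not pass, against 3.95% of all genes higher. Apoe, abundant in brain macrophages, had 10096 and 5834 CPM on day 5, then 13670 and 11494 on day 14 (0.66 ± 0.24, adjusted p = 0.171). It passed the test without replicate 1 of day 5 (1.12) and without replicate 2 of day 14 (0.79).

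The neutrophil collagenase Mmp8, also made by young myeloid cells, had 169 and 146 CPM on day 5, then 35.2 and 30.7 on day 14 and fell by 2.27 ± 0.22 (adjusted p = 7.37e-04). The granule genes Elane (-7.48 ± 1.51), Ctsg (-5.66 ± 1.31) and Prtn3 (-3.78 ± 0.81), proteases of the granulocyte and monocyte progenitor, passed too, but 1 library carried them. Elane had 39.1 and 1089 CPM on day 5, then 8.49 and 0 on day 14, and without replicate 2 of day 5 its value was -3.61. Ctsg then lost its call (-1.94, adjusted p = 0.49), and Prtn3 was at -1.61. In that library 15 of 130 monocytes had 3 or more UMIs of Elane, Prtn3, Ctsg and Mpo, and 3 of them held 89.8% of the 1535 UMIs. Summed neutrophil markers stood at 1050 and 4176 CPM on day 5, then 821 and 607 on day 14 in the monocytes, and their part in the result was not tested. Of the 10 markers, 1 and 2 were at 0 in the monocytes of the day 5 libraries and none on day 14. In neutrophils the sum lay between 50989 and 99238 CPM.

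Of 24 cell cycle genes, 18 fell and 6 did not pass, against 1.74% of all genes lower, and their median was -2.56 where that of all genes was 0.00. Genes of the list that were scarce on day 14, such as Ccnb1 (6 and 0 UMIs), could pass the low-count filter only through day 5. The count of 18 is therefore a description. With no filter on low counts, 21 of 26 were lower. Without replicate 2 of day 5 the count was 12 of 24, and with DESeq2 it was 9. In the stricter selection 5 of the list could be tested and 0 passed. Ube2c, which helps degrade mitotic cyclins, had 76.2 and 146 CPM on day 5, then 13.3 and 5.12 on day 14 and fell by 3.76 ± 0.45 (adjusted p = 0.00169). Stmn1, a regulator of microtubules, had 171 and 364 CPM and then 74.0 and 25.6 and fell by 2.54 ± 0.46. Nusap1, a spindle protein gene, fell by 2.78 ± 0.43. Mki67, the usual marker of proliferation, fell by 2.57 ± 0.56 (adjusted p = 0.0284), but not without replicate 2 of day 5 (-1.66, adjusted p = 0.23). Replicate 2 of day 5 had the higher level of all 4. Stmn1 did not pass with DESeq2 (adjusted p = 0.12), and without replicate 2 of day 14 it was at -1.85 and Ube2c at -3.04.

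Few cells stood behind these values. At 2000 UMIs a cell, 3 or more UMIs of the list were found in 11 (10.0%) and 26 (20.2%) monocytes on day 5, then in 16 (7.80%) and 15 (4.08%) on day 14. Of the 15 cells with granule genes in replicate 2 of day 5, 14 also had 3 or more UMIs of the cell cycle list, both counted before thinning. Against the dendritic cells, 9 of 23 cell cycle genes had a lower day effect in the monocytes (0.764% of all genes did), and against macrophages 0 of 25 did (8 at an unadjusted p under 0.05).

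Of 22 tested cytokine and chemokine genes, 6 rose and 16 did not pass, against 3.95% of all genes higher. The count was 2 of 18 in the stricter selection and 15 of 23 without replicate 1 of day 5. Il1b, which encodes the inflammasome cytokine interleukin-1β, had 1172 and 700 CPM on day 5, then 2250 and 2897 on day 14 and rose by 1.46 ± 0.24 (adjusted p = 0.00734). A UMI of it was found in 52.7% and 44.96% of thinned monocytes on day 5, then in 82.0% and 78.5% on day 14, against 12.5%, 9.09%, 9.98% and 7.63% of T cells. Its day effect was larger than in the dendritic cells by 1.57 ± 0.21 (adjusted p = 2.2e-04), and against macrophages the difference (0.90 ± 0.23) did not pass (adjusted p = 0.068). Il18, a cytokine processed by the same route, rose by 1.80 ± 0.32, Acod1, which makes itaconate, by 1.99 ± 0.41, and Cxcl16 by 1.03. Both lost their calls without replicate 2 of day 14 (adjusted p = 0.1 and 0.082). Il18 was at 2.52 without replicate 1 of day 5. Ccl2 (-0.25 ± 0.62) and the receptor antagonist Il1rn (1.67 ± 0.44, adjusted p = 0.0592) did not pass. Ccl2 had 1079 and 188 CPM on day 5, then 314 and 737 on day 14, so the libraries of each day were far apart. Its value ran from -1.03 to 1.51 with 1 library left out.

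Of 19 tested interferon gamma genes, 6 rose and 13 did not pass, against 3.95% of all genes higher. Those that rose included the GTPase gene Irgm1 (1.25 ± 0.19), Ifi47 (1.40 ± 0.27) and Ciita, and the median of the 19 was 0.85. The rise of Ciita is a description, since this gene passed the low-count filter only through the later day. Igtp (1.26 ± 0.26) lost its call without replicate 2 of day 14 (adjusted p = 0.086). The interferon gamma receptor gene Ifngr1 (0.45 ± 0.17) did not pass. Of 18 class I genes, 7 rose and 11 did not pass, against the same 3.95%. B2m, the shared light chain, had 4271 and 3463 CPM and then 6644 and 8343 (0.95 ± 0.18, adjusted p = 0.0133), and Psmb9, an immunoproteasome subunit, rose by 1.27 ± 0.18.

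Of 19 repair genes, Spp1 alone rose, a share near the 3.95% of all genes, and 3 fell, against 1.74% of all genes. Those that fell were Fn1, Gdf15 (-2.80 ± 0.64) and the resolution mediator Anxa1 (-0.83 ± 0.19). Gdf15 lost its call without replicate 1 of day 5 (-1.59, adjusted p = 0.085), and Anxa1 without replicate 1 of day 14 (-0.68, adjusted p = 0.26). Arg1, the arginase of alternatively activated cells, had 94.7 and 15.7 CPM on day 5, then 112 and 290 on day 14 (1.95 ± 0.61, adjusted p = 0.111, and 3.72 without replicate 1 of day 5, which passed), and Vegfa did not pass (1.63 ± 0.41, adjusted p = 0.0508).

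In the lipid and lysosome list, 4 of 22 rose and 18 did not pass, against 3.95% of all genes higher. The cholesterol exporters Abca1 and Abcg1 rose by 2.25 ± 0.32 and 1.25 ± 0.23, from 18.5 and 12.2 to 68.0 and 76.1 CPM and from 72.1 and 48.8 to 150 and 135. Ctss, the protease that trims the invariant chain, rose by 0.88 ± 0.18 and Npc2, a lysosomal cholesterol carrier, by 0.88 ± 0.18, the latter not without replicate 2 of day 14 (adjusted p = 0.058). Of 24 tested trafficking genes outside the rule, 1 rose, 1 fell and 22 did not pass, against 3.95% of all genes higher and 1.74% lower. The integrin gene Itgb7 had 307 and 291 CPM on day 5, then 154 and 181 on day 14, and fell (-0.83 ± 0.17). Itgb7 lost its call without either day 14 library (adjusted p = 0.22 without replicate 1 and 0.058 without replicate 2).

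Of 17 immediate early and heat shock genes, 5 rose and 12 did not pass, against 3.95% of all genes higher. They included Zfp36, which destabilizes cytokine messages (1.00 ± 0.15), Btg2 (0.94 ± 0.20), Hspa1a (2.08 ± 0.48) and Hspa8 (0.73 ± 0.17). Of these 4, Btg2, Hspa1a and Hspa8 lost their calls without replicate 2 of day 14 (adjusted p = 0.079, 0.06 and 0.26). Of 20 phagocytic, Fc and Toll-like receptor genes, the high-affinity Fc receptor gene Fcgr1 (1.13 ± 0.20) and Fcgr2b (0.70 ± 0.17) rose and Trem3 (-1.50 ± 0.29) fell, against 3.95% of all genes higher and 1.74% lower. Fcgr2b lost its call without replicate 2 of day 5 and without either day 14 library (adjusted p up to 0.32). In glycolysis and hypoxia, 1 of 22 rose, the hexokinase Hk2 (1.24 ± 0.20, adjusted p = 0.00676), a share near that of all genes. Of 27 transcription factors, Irf9 and Id3 (1.02 ± 0.19) rose and 25 did not pass, against 3.95% of all genes higher.

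Some transcripts of lymphocytes were more frequent in the monocytes of day 14, when the libraries also held more lymphocytes. Ltb had 0 UMIs of 1037120 on day 5 and 91 of 2578061 on day 14, at least 12.2-fold higher against a floor of 3 counts over the day. Gzma had 1 and 96 UMIs, a ratio of 38.6 (95% interval 6.77 to 1541, counting error only), and Trbc2 1 and 48. Genes with so few UMIs on day 5 could pass the low-count filter only through day 14, so these are descriptions. Of the listed markers that could be tested, 1 of 2 T cell and 2 of 3 NK cell markers rose, against 3.95% of all genes. The lowest log2 fold changes among them were -0.26 and 0.024. Klrk1 rose by 2.36 ± 0.34, Klrd1 by 2.09 ± 0.34 and Ccl5, a chemokine abundant in T and NK cells, by 1.96 ± 0.20. In lymphocytes Ccl5 averaged 2401 and 2960 CPM on the 2 days. Summed T cell markers in the monocytes were 52.2 and 8.96 CPM on day 5, then 69.5 and 90.6 on day 14, against 2356, 1792, 3304 and 3552 in lymphocytes, with 2 and 5 of the 8 markers at 0 on day 5. NK markers stood at 48.0, 115, 189 and 236 CPM, with 3, 7, 1 and 0 of 10 at 0. The part of lymphocyte RNA in these results was not tested. Microglial markers were at 705, 584, 610 and 518 CPM against 15648, 18059, 13161 and 12783 in microglia. B cell markers were at 119, 222, 286 and 145 CPM.

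The largest increases of all were of another kind. The 12 genes with the highest fold changes among those that met the naming rule (Gm4950, Gm10073, Rpl9-ps6, Gm9493, Gm11361, Rps12-ps3, Rpl7a-ps5, Rpl27-ps3, Gm8797, Ftl1-ps1, Gm3839 and Psme2b) are pseudogenes, predicted genes or near-identical copies of ribosomal, ferritin and proteasome genes, whose reads the authors' counting could split between copies. Rpl9-ps6 had 16.5 and 13.9 CPM on day 5, then 643 and 492 on day 14. In lymphocytes it went from 25.1 to 880 CPM in the mean. All 7 tested pseudogenes of the annotation were higher, with a median of 4.53 in the monocytes and 4.81 in lymphocytes. Genes with next to no UMIs on day 5, such as Gm4950 (1 and 0 UMIs), could pass the low-count filter only through day 14. That all 7 were higher is therefore a description. The file headers also differ between the days, and that difference and the day cannot be told apart. Without these 7, 234 genes were higher on day 14. Copies that the annotation names protein coding, such as Rpl9-ps6 and Ftl1-ps1, remained among them. Of the 234, 88 were also up by 1 or more on the log2 scale in lymphocytes. Their median log2 ratio there was 0.73, against 0.12 for all genes tested, and the share of all genes past 1 was not counted.

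Since copies filled the ranking, the 12 protein-coding genes with the largest rise and a change under 1 on the log2 scale in lymphocytes were listed as well, a choice made after their values were seen. They were Ly6a, Spp1, Gpr171, Ciita, H2-Eb1, Scimp, Ifi213, Ifitm1, H2-Aa, Cd74, H2-Ab1 and Bcl2a1b. Scimp, an adaptor in antigen-presenting cells, had 18.5 and 8.71 CPM on day 5, then 65.5 and 93.4 on day 14 (2.60 ± 0.39), and was at 3.21 without replicate 1 of day 5. Ifitm1, which blocks virus entry, had 126 and 90.6 CPM and then 368 and 796 (2.44 ± 0.35), and was at 1.78 without replicate 2 of day 14. Bcl2a1b, a survival gene with near-identical copies, had 45.3 and 52.3 CPM and then 178 and 263 (2.18 ± 0.26). Of these 12 genes, 5 belong to the class II list, whose median log2 ratio in lymphocytes was -0.89. B cell markers in lymphocytes summed to 5804 and 42617 CPM on day 5, then to 2056 and 1638 on day 14. What part this had in the choice of the 12 was not tested. Gpr171 (7 and 1 UMIs on day 5), Ciita (2 and 7) and Scimp (9 and 5) passed the low-count filter only through day 14. Their rises are therefore descriptions.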

How the data were processed

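The authors deposited raw UMI counts per gene and barcode for 4 libraries, with no normalization, per the file headers a matrix of whole counts over 31053 genes. Cell Ranger 3.0.1 and Seurat 2.3.4 with GRCm38 (mm10) are named in the submitters' processing notes, and the annotation release is not given in the sources used here. Barcodes with 200 or more genes and at most 10% mitochondrial UMIs were kept. No doublet caller was run: limits on T, B and C1q UMIs and a stricter selection stood in for one. The members and the 26 gene lists were chosen with earlier results of these data known.

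Counts of members were summed per library and tested with edgeR 4.0.16 in R 4.3.3 (quasi-likelihood test with day as the single covariate, filterByExpr, two-sided, Benjamini-Hochberg threshold 0.05). Differences of the day effect between classes were tested as a class by day interaction with the library as a block. DESeq2 1.42.0 was an alternative. Normalized CPM use TMM library sizes. A gene scarce on 1 day could pass the low-count filter through the other day alone. On counts simulated from these libraries, 62% of 2-fold and 100% of 4-fold changes were recovered among 6087 genes, with 8 false calls. The changed genes were drawn from those with a mean of 50 CPM or more, and all genes had the same simulated variation between libraries. Recovery of scarcer or more variable genes was not simulated. Named genes are the 12 with the largest change in each direction among those called with 50 CPM or more on a day and no overlap, the members of each list with the 4 smallest adjusted p, and Spp1 with its receptors. Another 17 list members are given as examples, chosen after their values were seen. A few genes that the rule names are not reported here. Levels were ranked with 10 CPM added. Shares of cells with a UMI were taken after drawing 2000 UMIs from each cell. The libraries of 1 day differed by a chi-square per gene of 3.64 and 3.94, more than sampling noise. The 22 genes of the rule stayed in the fit over all genes, but are left out of the lists and are described with no test.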

Additional observations from a re-analysis of the deposited data

Results flagged for a closer look

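Each of the following passed edgeR's test of a day effect in the monocytes that differs from that in another class (Benjamini-Hochberg adjusted p at most 0.05), and was among the 6 most extreme in its direction. Values are differences of log2 fold changes, monocytes minus the other class.

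Against macrophages, the lectin receptor genes Clec10a (3.96), Mgl2 (3.71) and Mrc1 (2.94), the class II genes H2-Oa (3.86) and H2-Eb1 (2.92) and the NK receptor gene Klrd1 (2.85) had the larger effect in the monocytes. For Mgl2 the macrophages went from 81.6 to 7.5 CPM in the mean, and the monocytes went from 10.1 to 13.2. Lower in the monocytes were Prtn3 (-4.54), C3 (-2.87), Slfn4 (-2.79), Plec (-2.44), Hp (-2.44) and Ly6i (-2.41). Hp went from 56.6 to 166 CPM in macrophages and from 1003 to 527 in monocytes, and the mean CPM of Slfn4 and Ly6i was higher on day 14 in both classes.

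Against the Cd209a dendritic cells, H2-Eb1 (3.27), H2-Oa (3.17), Id3 (3.15) and Spp1 (3.02) had the larger effect in the monocytes. Gzma (13.21) and Ltb (7.86) did as well, but Gzma was at 0 CPM in these dendritic cells on day 14 and Ltb at 0 in the monocytes on day 5, so both values depend on the prior count. Lower in the monocytes were Pclaf (-9.80), Ube2c (-7.21), Top2a (-5.92), Ccnb1 (-4.91), Cxcl10 (-5.19) and S100a8 (-4.13). Pclaf was at 0 CPM in the dendritic cells of day 5, where the same holds. S100a8 had 453 and 2747 CPM in the 2 day 5 libraries of the monocytes. The chemokine gene Cxcl10 went from 2.58 to 182 CPM in the dendritic cells and from 237 to 384 in the monocytes, whose own change did not pass the test (adjusted p = 0.105).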

How the results depend on the processing

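With 2 libraries a day, a change of 2-fold was often missed in the simulated counts, and a gene's level rests on 112 to 372 cells. The genes called higher and lower on day 14 (241 and 106) numbered 152 and 50 with DESeq2, 458 and 234 without a filter on low counts, and 148 and 30 with the stricter selection. They numbered 214 to 494 and 102 to 287 when 1 library was left out, with the lone library assumed to vary like the others; the highest counts came without replicate 1 of day 5. A C1q limit of 5 gave 59 lower. The numbers of the replicates pair nothing in the labels, and deviations of same-numbered libraries had a correlation of -0.352 over 2676 genes. With a replicate block 126 were higher and 24 lower (149 of the 347 calls kept, 20 of 37 interferon and 6 of 24 cell cycle genes), and with the crossed pairing, added after seeing the data, 365 and 218. Differences of the day effect against macrophages (80) numbered 167 without the filter, 42 with the stricter selection and 36 to 105 with 1 library left out. Against dendritic cells (93) they numbered 144, 54 and 12 to 139, lowest without replicate 1 of day 14. Against lymphocytes (102, a comparison added after seeing the data) they numbered 17 to 147, lowest without replicate 2 of day 5. The difference in share kept its direction, from 5.16 to 22.7 points over 5 alternatives and from 3.83 to 11.998 with 1 library left out. Of 104 named genes outside the rule that passed, 53 did so in every fit that tested them.

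Signs turned mostly for genes that did not pass. Ccl2 was at 0.057 with the replicate block, 0.0019 with the crossed pairing, 0.041 with 3 or more Ly6c2 UMIs, 0.23 without a C1q limit and -1.03 to 1.51 with 1 library left out, where it passed both ways. Itgb5 was at 0.35 with 3 or more Ly6c2 UMIs, 0.040 in the stricter selection, 0.045 without cycling or granule-gene cells and -0.31 to 0.10 with 1 library left out. With 1 library left out Itgav lay between -0.049 and 0.69 and Mgl2 between -0.43 and 2.69. Without a C1q limit Itgax was at -0.21 and Mgl2 at -0.26. The cause was not tested.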

Other observations

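Cells that met every condition but the C1q limit, with 10 or more C1q UMIs, numbered 49 and 39 on day 5 and 58 and 157 on day 14. They held 29833 and 30242 CPM of Apoe on day 5 and 31892 and 38148 on day 14. Spp1 was at 1687 and 1011 CPM in them on day 5 and at 9526 and 19453 on day 14, more than in the monocytes of the same library each time. Ly6c2 went from 1322 and 807 to 3741 and 3247 CPM, and Chil3 from 1894 and 1487 to 393 and 235. Isg15 went from 273 and 416 to 1203 and 1227 CPM, and Irf7 from 353 and 323 to 1335 and 1336. No test was run on these cells.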
